A study of Homo sapiens with 3 samples.

Results

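Matricellular proteins are secreted into the extracellular matrix but act there mainly as signals rather than as structural fibres. They bind integrins and other receptors, collagens, proteases and growth factors, and so tune how firmly a cell adheres and how it reads its surroundings. In fibroblasts several of them rise during wound repair and in response to transforming growth factor beta (TGF-beta). The genes described here were 10 members of this class, namely POSTN, TNC, THBS1, THBS2, SPARC, TGFBI, CCN3, CCN4, CCN5 and SPP1. They were found by symbol: every probe set that the platform annotation assigns to exactly 1 of these genes was kept, which gave 27 of 54613 probe sets and 10 of 19775 named genes.

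All 3 conditions used the IMR-90 ER:Ras line, human lung fibroblasts with a Ras protein that 4-hydroxytamoxifen (4-OHT) can switch on, and the Ras fusion was therefore present in every condition. Cells in oncogene-induced senescence (OIS) had been kept in 100 nM 4-OHT for 6 days, and cells in replicative senescence (RS) had been passaged repeatedly for 10 weeks. Growing cells were untreated and served for comparison. Each condition was measured on 1 Affymetrix array, so no test between conditions was possible, precision is limited by the small number of arrays, and an effect of 4-OHT itself cannot be told apart from one of Ras. In addition, the time in culture cannot be told apart from senescence in RS.

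Signals are linear MAS5 units with nearly the same trimmed mean on every array, and levels are compared only within a probe set. Summed signals of marker lists are the exception, since they add different probe sets and bright probe sets weigh most in them. Values up to 45.5, the median of all probe sets on all arrays, were treated as a floor and raised to it before ratios were formed. Where the lower of the compared signals was not above that floor, the fold is a bound and is written "at least". The 3 arrays were alike in scale, with median signals between 44.9 and 46.2. All 9 fibroblast markers of a fixed list were above the floor on every array, and their summed signal was 141745 in OIS, 162215 in RS and 149920 in growing cells. Bright collagen genes and VIM made up most of these sums, and single markers moved more. DCN was 2.59-fold lower in OIS and S100A4 3.21-fold higher in RS than in growing cells. In a bulk sample, fewer cells with a transcript and less transcript per cell cannot be told apart.

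Of the 27 probe sets, 20 exceeded the floor on all 3 arrays, 25 on 1 or more, and 2 on none. CCN5, a growth-inhibitory member of the CCN family, had a single probe set at 10.2 in OIS, 3.9 in RS and 5.3 in growing cells, all below the floor, and is not interpreted further. The other 9 genes counted as measured. Each was represented in counts by its brightest probe set, and the other probe sets are given beside it as the only repeat measurement. Across the array, the log2 ratios of the 2 brightest probe sets of a gene differed with an SD of 0.50 for OIS over growing (6541 genes), 0.46 for RS over growing (6529 genes) and 0.51 for OIS over RS (6540 genes). This spread covers probe error and not differences between cultures.

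The members did not move as a block. POSTN, SPP1, THBS2 and CCN4 were at least 2-fold higher in OIS than in growing cells, and POSTN and SPP1 were at least 2-fold lower in RS than in growing cells. SPARC and TGFBI, bright in all 3 conditions, differed from growing cells by no more than 1.27-fold in either state. THBS1 was higher in RS than in growing cells on all 7 of its probe sets, by amounts that differed between them.

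Of the members past 2-fold from growing cells on the brightest probe set, POSTN, SPP1 and THBS2 had an upstream sequence and CCN4 did not. THBS1 was past 2-fold from growing cells on other probe sets only. The sequences just upstream of POSTN, THBS2, SPP1 and THBS1 are printed here. They are the 250 bases before the annotated start, 5′ to 3′ in the direction of the gene, from RefSeq on GRCh38.p14, and 7 of the 10 members were found in that table, CCN3, CCN4 and CCN5 not among them. POSTN lies at chr13:37598769-37599018 on the minus strand, THBS2 at chr6:169253847-169254096 on the minus strand, SPP1 at chr4:87975464-87975713 on the plus strand and THBS1 at chr15:39580829-39581078 on the plus strand. Capitals mark matches on either strand to 6 motifs, chosen with the values known: TATAAA for the TATA box, TGANTCA for AP-1, CCAAT for the box of that name, GGAATG for TEAD, CAGACA for SMAD and CATATG for an E-box of the TWIST type.
POSTN: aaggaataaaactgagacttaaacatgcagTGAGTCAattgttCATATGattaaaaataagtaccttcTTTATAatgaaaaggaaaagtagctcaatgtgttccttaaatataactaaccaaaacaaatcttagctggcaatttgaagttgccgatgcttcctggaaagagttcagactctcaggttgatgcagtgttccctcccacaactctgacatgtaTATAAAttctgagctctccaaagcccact
THBS2: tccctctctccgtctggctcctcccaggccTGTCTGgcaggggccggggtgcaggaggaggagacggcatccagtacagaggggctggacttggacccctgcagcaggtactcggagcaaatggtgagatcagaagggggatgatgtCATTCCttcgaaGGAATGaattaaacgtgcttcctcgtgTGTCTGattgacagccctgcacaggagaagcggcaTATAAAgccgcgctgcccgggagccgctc
SPP1: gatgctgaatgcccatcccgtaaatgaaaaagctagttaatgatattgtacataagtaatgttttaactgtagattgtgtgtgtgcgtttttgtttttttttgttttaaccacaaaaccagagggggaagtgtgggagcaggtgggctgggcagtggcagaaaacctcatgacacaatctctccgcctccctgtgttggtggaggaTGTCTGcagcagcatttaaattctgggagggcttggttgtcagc
THBS1: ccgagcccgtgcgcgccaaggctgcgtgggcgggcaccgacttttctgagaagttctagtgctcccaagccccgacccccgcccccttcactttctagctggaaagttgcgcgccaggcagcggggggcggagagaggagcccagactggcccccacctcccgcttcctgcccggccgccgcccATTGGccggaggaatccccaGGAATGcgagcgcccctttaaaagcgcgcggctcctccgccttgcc

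The POSTN window held TATAAA 29 bases before the start and again, on the other strand, 182 bases before it. It also held an AP-1 match 220 bases and the CATATG match 207 bases before the start. Of 35116 RefSeq windows of the same length, 10.7% held TATAAA, 6.57% the AP-1 letters and 2.63% CATATG. The THBS2 window held TATAAA 29 bases before the start, 2 GGAATG matches on opposite strands 103 and 91 bases before it, and 2 CAGACA matches. The last motif was also the 1 match in SPP1, and it occurred in 13.6% of all windows, against 11.9% for GGAATG. The THBS1 window had no TATAAA and held CCAAT 66 bases and GGAATG 46 bases before the start, the first of which occurred in 32.0% of all windows. No marked match overlapped another. Of the windows not printed, SPARC held 1 match, to GGAATG, TNC held 1, to CAGACA, and TGFBI held 0. None of these genes was past 2-fold from growing cells. The GC content was 36.4% for POSTN, 44.8% for SPP1, 60% for THBS2 and 69.6% for THBS1, against a mean of 57.2% over all windows. A match is a run of letters and does not show that a factor binds.

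**Figure D1:**
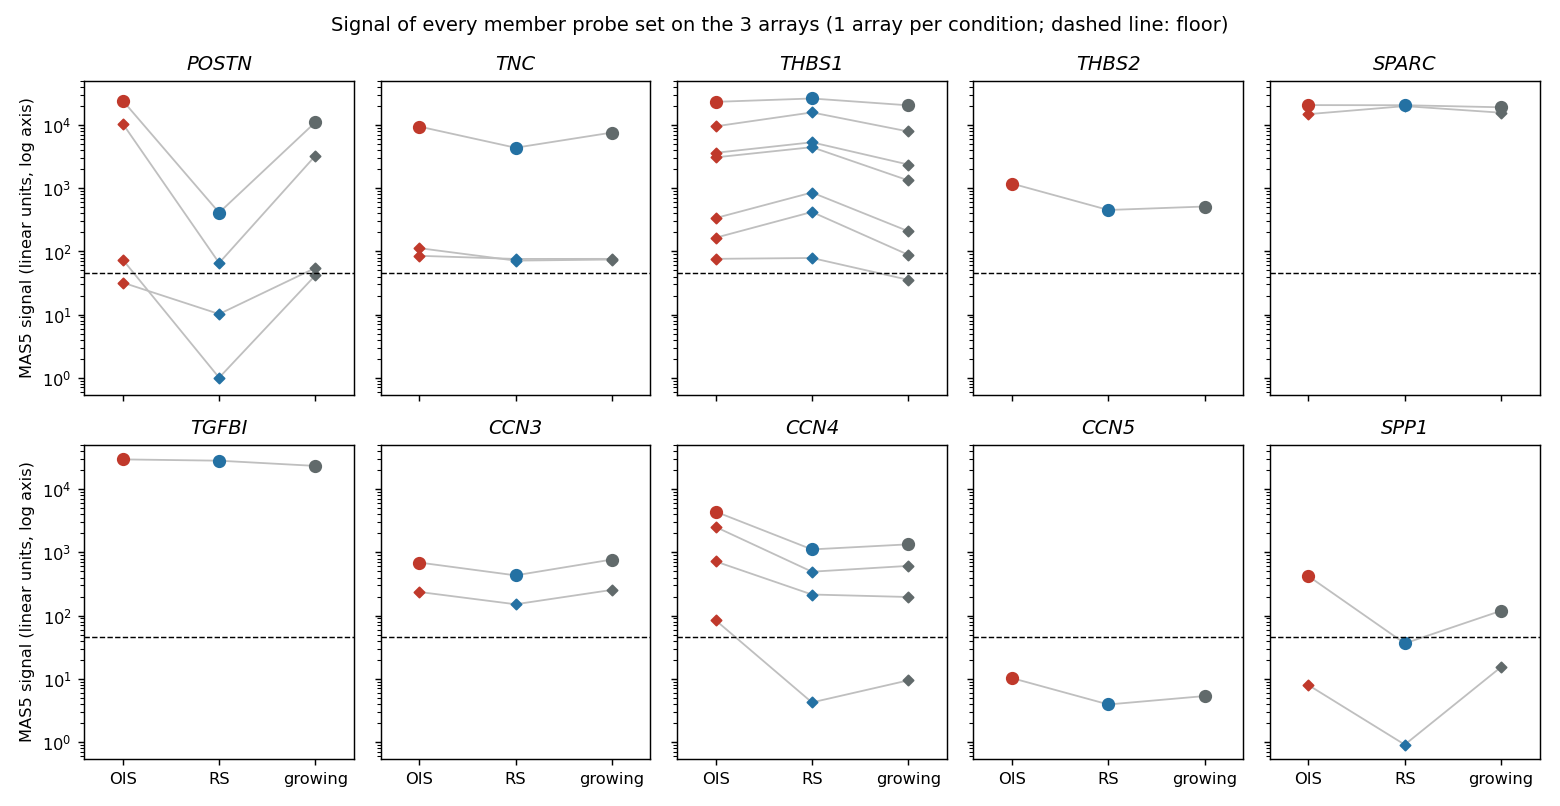
Signal of each of the 27 probe sets in linear MAS5 units on a log axis, by gene, on the OIS, RS and growing arrays (1 array each, no error bars). Large circles are the brightest probe set of a gene, small diamonds the others, grey lines join 1 probe set across arrays and the dashed line is the floor of 45.5. POSTN dips in RS to 412 and 65.7 on its brighter probe sets, while SPARC and TGFBI lie nearly level.

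Periostin, encoded by POSTN, is a fasciclin-domain protein that binds integrins and collagen and promotes collagen cross-linking. Its brightest probe set, 210809_s_at, read 24524 in OIS, 412 in RS and 11197 in growing cells. The second, 1555778_a_at, read 10576 in OIS, 65.7 in RS and 3295 in growing cells. On both, OIS was the highest and RS by far the lowest.

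POSTN was 2.19-fold and 3.21-fold higher in OIS than in growing cells on these probe sets, and 27.2-fold and 50.1-fold lower in RS than in growing cells. Between the senescent states, OIS was 59.5-fold and 161-fold above RS. Of 13466 measured genes, 1 had a lower ratio of RS over growing than POSTN, and 11 had a higher ratio of OIS over RS. The remaining probe sets were dim. 214981_at was above the floor in OIS only, at 74.1, so its signals of 1.0 in RS and 42.0 in growing cells have no order. 1555777_at was above the floor in growing cells only, at 54.9, with 32.1 in OIS and 10.2 in RS. With the median of all 4 probe sets, which counts these dim ones, the log2 ratio of POSTN was 0.92 for OIS over growing, below 2-fold, and -2.52 for RS over growing.

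TGFBI encodes the closest relative of periostin, a TGF-beta-induced protein with the same fasciclin domains that also binds integrins and collagen. Its single probe set, 201506_at, read 29835 in OIS, 28453 in RS and 23516 in growing cells. It was 1.27-fold higher in OIS and 1.21-fold higher in RS than in growing cells, so the pair of fasciclin genes separated in RS, with log2 ratios of RS over growing of -4.76 for POSTN and 0.27 for TGFBI.

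Osteopontin, encoded by SPP1, is an integrin- and CD44-binding phosphoprotein of bone that is also made by activated macrophages. Its probe set 209875_s_at read 421 in OIS, 36.2 in RS and 119 in growing cells, so RS was below the floor. SPP1 was 3.54-fold higher in OIS than in growing cells, at least 2.62-fold lower in RS than in growing cells, and at least 9.25-fold higher in OIS than in RS. Its other probe set, 1568574_x_at, was at or below 15.3 on every array and gives no second reading. Both names carry endings of probe sets that can hybridize to several transcripts. With the floor raised to 88.8, the log2 ratio of RS over growing was -0.42 in place of -1.39, so the size of the RS difference of SPP1 depends on the floor.

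Markers of cells known for osteopontin were examined beside it. Of 5 osteoblast markers with a usable probe set, IBSP, ALPL, SP7 and DMP1 were at or below the floor on all arrays. RUNX2, a transcription factor of bone formation that these fibroblasts also express, read 3026 in OIS, 1432 in RS and 1964 in growing cells, the same order as SPP1, and its part in the SPP1 values was not tested. The RUNX2 log2 ratio of RS over growing, -0.455, was within the probe spread of 0.464. Of 6 macrophage markers, CD163, MARCO, PTPRC and TYROBP were at or below the floor on all arrays. CD14 was above the floor in RS only, at 52.4, and CSF1R in RS and growing cells, at 58.9 and 50.7. The summed signal of the 6 was 79.5 in OIS, 118.4 in RS and 78.5 in growing cells. These signals lie near or below the floor and give no order of the arrays.

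The thrombospondins are large secreted glycoproteins that bind CD36, CD47 and integrins. Thrombospondin-1 can activate latent TGF-beta, and both thrombospondin-1 and thrombospondin-2 inhibit blood vessel growth. THBS2 had 1 probe set, 203083_at, at 1189 in OIS, 454 in RS and 516 in growing cells. It was 2.31-fold higher in OIS than in growing cells, 1.14-fold lower in RS than in growing cells, and 2.62-fold higher in OIS than in RS.

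THBS1 gave another picture. Its brightest probe set, 201110_s_at, read 23483 in OIS, 26557 in RS and 20696 in growing cells, which is 1.13-fold and 1.28-fold above growing cells. The probe set 235086_at read 3098 in OIS, 4493 in RS and 1337 in growing cells, or 2.32-fold and 3.36-fold above growing cells. On each of the 7 probe sets RS was the highest, OIS lay between, and growing cells were the lowest.

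The size of the THBS1 difference varied with the probe set. For RS over growing it was 2.003-fold on 201109_s_at, 2.25-fold on 201108_s_at, 4.11-fold on 239336_at, 4.78-fold on 201107_s_at and at least 1.73-fold on 215775_at, whose growing signal of 35.5 was below the floor. Among the 6 probe sets above the floor on all arrays, the log2 ratio of RS over growing was smaller the brighter the probe set. Genes with a mean signal of 10000 or more passed 2-fold less often on these arrays as a whole: 15 of 602 such genes (2.49%) did so between RS and growing cells, against 9.30% of all measured genes. Whether high signal compresses the ratio of 201110_s_at was not tested. By the rule of 1 brightest probe set per gene THBS1 is therefore counted as not past 2-fold, whereas 5 of its 7 probe sets were past 2-fold in RS.

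**Figure D2:**
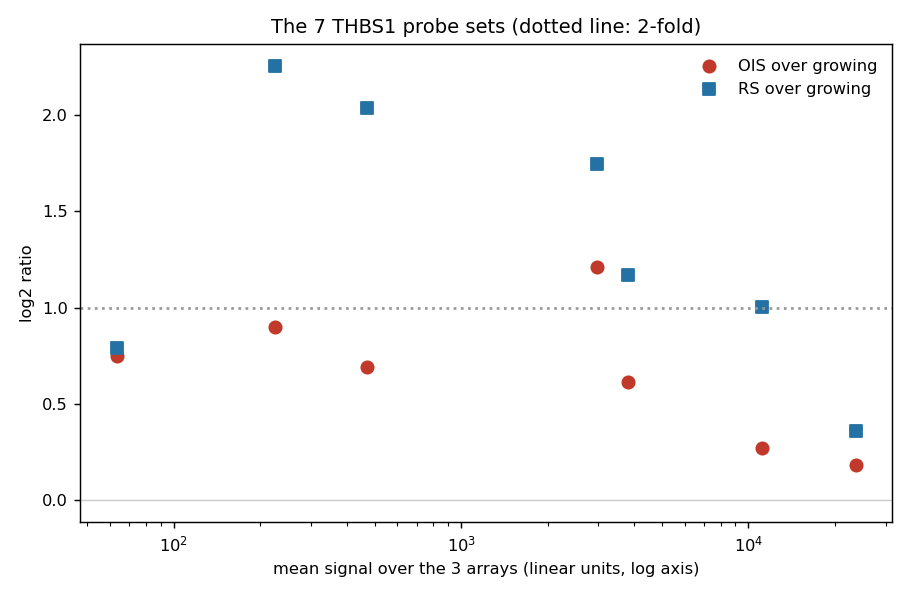
Log2 ratio of each of the 7 THBS1 probe sets (vertical axis) against its mean signal over the 3 arrays in linear units (log axis), with red circles for OIS over growing and blue squares for RS over growing; the dotted line is 2-fold. Each point is 1 probe set with no replicate. All ratios lie above 0, and the RS ratios run from 2.26 on the second dimmest probe set to 0.36 on the brightest.

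Tenascin-C, encoded by TNC, is a many-armed protein of wounds and tumor stroma that weakens adhesion to fibronectin. Its bright probe set, 201645_at, read 9545 in OIS, 4402 in RS and 7656 in growing cells. TNC was 1.25-fold higher in OIS and 1.74-fold lower in RS than in growing cells, neither past 2-fold, and 2.17-fold higher in OIS than in RS. The others, 216005_at and 237169_at, lay between 71.6 and 112.9 on all arrays, also with OIS highest, and for RS over growing gave log2 ratios of -0.06 and -0.004 in place of -0.80. SPARC, also called osteonectin, is a collagen-binding protein that helps procollagen reach the matrix. Its probe set 200665_s_at read 20868 in OIS, 20763 in RS and 19266 in growing cells, and 212667_at read 14998 in OIS, 20104 in RS and 15810 in growing cells. The probe sets differed in sign for OIS over growing, with log2 ratios of 0.12 and -0.08, and both were above 0 for RS over growing, at 0.11 and 0.35. No ratio of SPARC exceeded the spread between probe sets.

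The CCN family comprises cysteine-rich secreted proteins that bind integrins and heparan sulfate proteoglycans. CCN4, formerly WISP1, is induced by WNT signaling and promotes fibroblast growth and matrix production. Its brightest probe set, 229802_at, read 4429 in OIS, 1117 in RS and 1344 in growing cells. The probe set 235821_at read 2536 in OIS, 495 in RS and 612 in growing cells, and 206796_at read 721 in OIS, 216 in RS and 197 in growing cells.

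CCN4 was 3.29-fold, 4.14-fold and 3.66-fold higher in OIS than in growing cells on these probe sets, and 3.97-fold, 5.12-fold and 3.34-fold higher in OIS than in RS. RS and growing cells were within 1.24-fold of each other on all 3, with both signs present. The probe set 211312_s_at was above the floor in OIS only, at 84.3, against 4.2 in RS and 9.4 in growing cells. CCN3, formerly NOV, counteracts several actions of its relative CCN2. Its probe set 214321_at read 692 in OIS, 433 in RS and 772 in growing cells, and 204501_at read 237 in OIS, 151 in RS and 255 in growing cells. CCN3 was 1.78-fold and 1.69-fold lower in RS than in growing cells, short of 2-fold but alike on both probe sets, and 1.11-fold and 1.08-fold lower in OIS.

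Counted by brightest probe set, 4 of the 9 measured members were at least 2-fold higher in OIS than in growing cells, where 4.92% of 13466 measured genes were, and 0 were at least 2-fold lower, where 6.63% were. In RS over growing, 0 members were at least 2-fold higher, against 3.72% of measured genes, and 2 were at least 2-fold lower, against 5.58%. The 0 rests on the choice of probe set, since 5 of the 7 THBS1 probe sets, but not the brightest, were past 2-fold. With the median of all probe sets, 1 member (THBS1) was higher and 1 (POSTN) lower in RS, where 322 and 549 of all genes were. In OIS over RS, 5 members (POSTN, SPP1, CCN4, THBS2 and TNC) were at least 2-fold higher, against 5.48%, and 0 were at least 2-fold lower, against 5.27%. TNC was past 2-fold on its bright probe set only: with the median of all probe sets its log2 ratio was 0.66 and the count was 4, against 501 over all genes. The median log2 ratio of the 9 was 0.34 for OIS over growing, -0.27 for RS over growing and 1.12 for OIS over RS, with a median of 0.00 over all measured genes in each. The comparisons share arrays and are not independent of one another, and the members were chosen with earlier results of these arrays known.

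The order of the arrays on the brightest probe sets was OIS, growing cells, RS for POSTN, SPP1, TNC, THBS2 and CCN4. Neighbours in that order differed by more than the probe spread for POSTN and SPP1 throughout. OIS and growing cells did not for TNC, at a log2 ratio of 0.32, and RS and growing cells did not for THBS2 and CCN4, at -0.18 and -0.27. CCN3 ran in the order growing cells, OIS, RS, and its OIS and growing signals lay within the spread, while OIS over RS, at 0.68, was beyond it. TGFBI and SPARC ran in the order OIS, RS, growing cells, and THBS1 in the order RS, OIS, growing cells. For these 3 genes no neighbours on the brightest probe set differed beyond the spread, with OIS over RS at 0.07 for TGFBI, 0.01 for SPARC and -0.18 for THBS1.

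**Figure D3:**
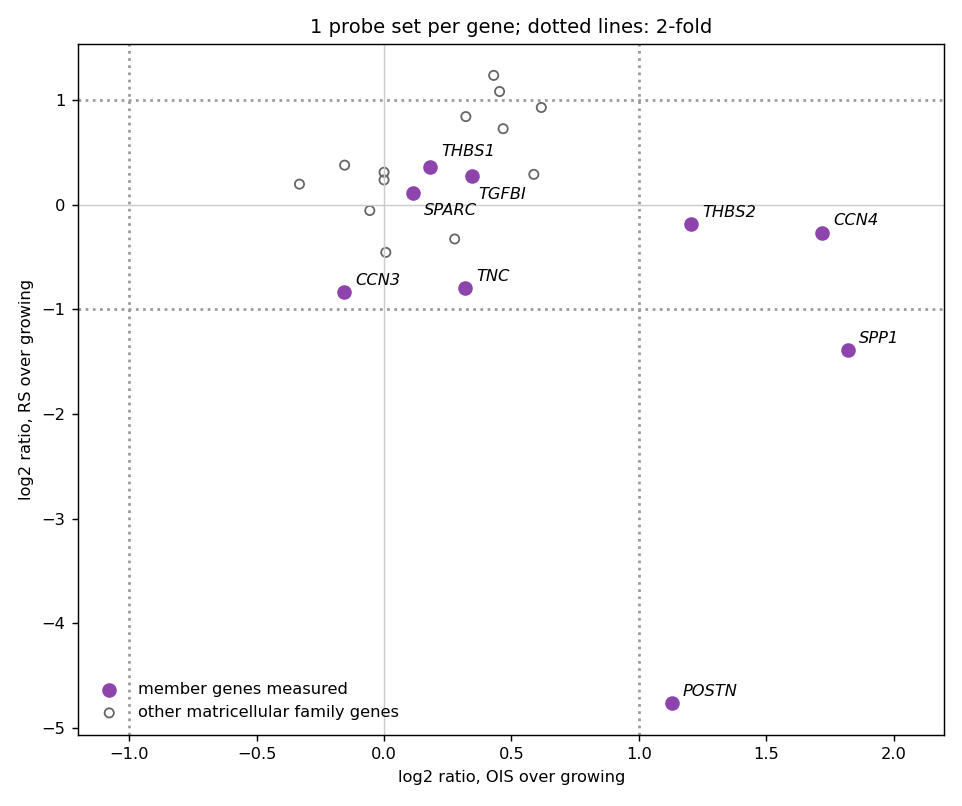
Log2 ratio of RS over growing (vertical) against log2 ratio of OIS over growing (horizontal) for the brightest probe set of the 9 measured members (filled, labelled) and of 13 measured relatives (open); dotted lines mark 2-fold, and both axes share the growing array. POSTN stands at 1.13 and -4.76, SPP1 at 1.82 and, with RS at the floor, -1.39, while CCN4 and THBS2 are displaced along the OIS axis.

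Genes with the most similar pair of ratios were sought among 11295 genes above the floor on all 3 arrays, by the straight-line distance in the log2 ratios of OIS over growing and RS over growing. POSTN had no close match. The nearest was ITGB8, the integrin subunit of a receptor for latent TGF-beta, at a distance of 1.47, with 2207 in OIS, 80.3 in RS and 808 in growing cells. It was followed by TNFAIP6, a hyaluronan-binding protein of inflamed tissue, at 1.66, and by NPTX1, a neuronal pentraxin, at 2.22, which unlike POSTN was lower in OIS than in growing cells. Nearest to THBS2 were NFKB1, a subunit of NF-kappaB, at 0.01, the adhesion molecule NINJ1 at 0.01 and the iron transporter SLC11A2 at 0.06. Nearest to CCN4 were FAM171B at 0.07, the neuropeptide gene GAL at 0.09 and the transcription factor KLF9 at 0.13. SPP1 was not above the floor in RS and was not matched.

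Relatives outside the members and other gene lists were examined next. Their counts stand beside those of all measured genes. Of these, 4.92% were at least 2-fold higher and 6.63% lower in OIS than in growing cells, and 3.72% and 5.58% in RS. Of 22 further matricellular genes 13 were measured. None passed 2-fold in OIS over growing, and 2 were higher in RS, with medians of 0.28 and 0.31. The RS pair was THBS3, a thrombospondin of cartilage and other tissues, with 321 in OIS, 561 in RS and 238 in growing cells, and SPOCK1, a proteoglycan with a SPARC-like domain, with 794 in OIS, 1227 in RS and 580 in growing cells. Their log2 ratios of RS over growing were 1.24 and 1.08. CCN2, also called connective tissue growth factor, read 17914 in OIS, 25695 in RS and 14339 in growing cells, and CCN1, also called CYR61, read 12367 in OIS, 17833 in RS and 15567 in growing cells. In contrast to CCN4, these CCN genes were highest in RS, with log2 ratios of OIS over RS of -0.52 for CCN2 and -0.53 for CCN1 and of 1.99 for CCN4. TNXB had log2 ratios of 0.62 in OIS and 0.93 in RS with growing cells below the floor, THBS4 of 0.01 and, with RS below the floor, -0.46, and CCN6 of 0.00 and 0.31 with RS alone above the floor. In OIS the smallest ratios were of CCN1 and of the follistatin-like FSTL1, at -0.33 and -0.15, and SMOC1, a SPARC relative, was at 0.59. In RS, DSPP, a dentin protein, was at -0.33, a bound because its RS signal of 31.7 was below the floor. COMP and SPARCL1 were at or below the floor on all arrays.

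Receptors of these proteins had medians near 0 in OIS. Of 20 measured, 3 were at least 2-fold higher and 1 lower in OIS than in growing cells (median 0.03), and 2 were higher and 2 lower in RS (median 0.24). ITGB5, which pairs with the alpha-v integrin to bind periostin, osteopontin and others, was higher in both states, at 11478 in OIS, 11742 in RS and 5352 in growing cells. CD36, the scavenger receptor bound by thrombospondin-1, read 109 in OIS, 139 in RS and 53.0 in growing cells, with log2 ratios of 1.04 and 1.40 close to the floor. The proteoglycan SDC1 was lower in both, at 266 in OIS, 278 in RS and 670 in growing cells. ITGB8, already named beside POSTN, had log2 ratios of 1.45 in OIS and -3.33 in RS, and ITGA6 of -0.96 in OIS. ITGAV, ITGB1, CD44 and CD47, common receptors of several members, differed from growing cells by no more than 1.20-fold in either state.

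Among 19 matrix partners and processing genes, 1 was at least 2-fold higher and none lower in OIS (median 0.24), and 1 was higher and 1 lower in RS (median 0.10). The gene higher in both was TGM2, a transglutaminase that cross-links matrix proteins, with 3253 in OIS, 3339 in RS and 1143 in growing cells. The proteoglycan BGN was the 1 lower in RS, with 965 in OIS, 370 in RS and 816 in growing cells, followed by PCOLCE, an enhancer of procollagen processing, at a log2 ratio of -0.96. COL12A1 and COL3A1 had log2 ratios of -0.58 and -0.50 in RS, smaller than that of POSTN. VCAN, at 0.77, was the second highest in OIS, LTBP1 and FBN1 were the lowest at -0.27 and -0.19, and FURIN was the second highest in RS at 0.63.

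Several members are TGF-beta-responsive in fibroblasts, and that pathway was examined in the same way. Of 23 measured genes, 4 were at least 2-fold higher and 2 lower in OIS than in growing cells (median 0.35), and 5 were higher and none lower in RS (median 0.50). The feedback inhibitor SMAD7 read 915 in OIS, 1662 in RS and 348 in growing cells, and the ligand TGFB2 read 1882 in OIS, 3429 in RS and 1039 in growing cells, both in the order of THBS1 and not of POSTN. Other genes of this list ran in the order of POSTN, among them TGFB1, TGFBR1 and COL7A1. Their log2 ratios of RS over growing, -0.27, -0.36 and -0.07, were within the probe spread. The part of this pathway in the members' values was not tested. COL7A1 and PMEPA1, a feedback inhibitor, were the highest in OIS, with log2 ratios of 1.66 and 1.47. The contractile genes CNN1 and TAGLN were the lowest in OIS, at -1.17 and -1.06, and in RS stood at 1.24 and 0.63. SMAD3 and SMAD4 were the lowest in RS, at -0.68 and -0.44.

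Among 12 measured mesenchymal transcription factors, 1 was at least 2-fold higher in OIS, none was lower there, and 1 was lower in RS, with medians of 0.22 and -0.01. TWIST1, a basic helix-loop-helix factor of mesenchyme, read 3420 in OIS, 980 in RS and 2785 in growing cells, the order of POSTN. Its log2 ratio was -1.51 for RS over growing and 0.30 for OIS over growing, the second within the probe spread. TWIST2 and RUNX2 ran in the same order. The part of these factors in the POSTN values was not tested. EGR1, an immediate early factor, read 8699 in OIS, 2652 in RS and 2558 in growing cells, with a log2 ratio of OIS over growing of 1.77. RUNX2 was at 0.62 in OIS, ZEB2 and PRRX1 were at -0.67 and -0.64 in OIS, TCF21 at -0.74 in RS, and SOX9 at 0.70 in RS. SNAI1 was above the floor in RS only, where its log2 ratio of 0.43 is a bound.

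**Figure D4:**
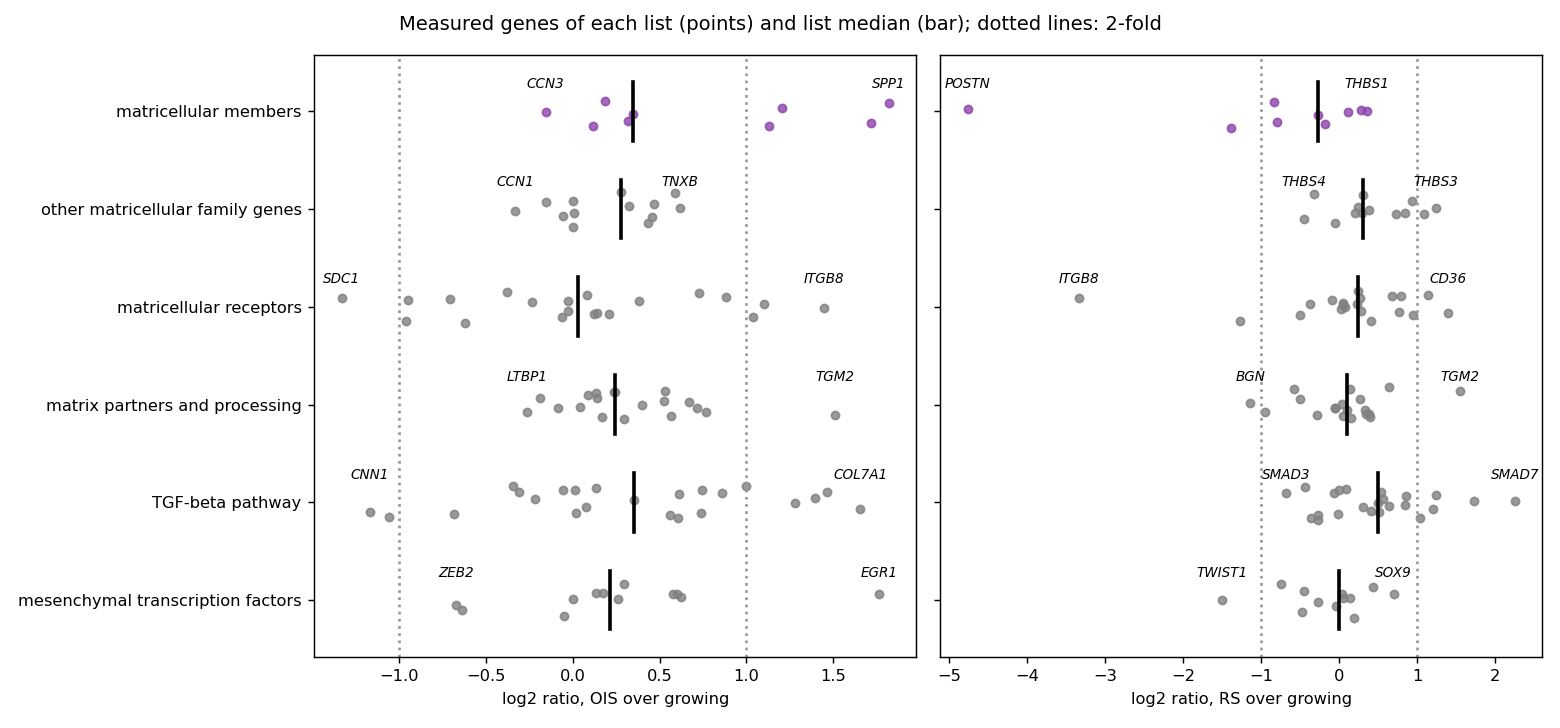
Log2 ratios of OIS over growing (left) and RS over growing (right) for the measured genes of the members and of 5 lists, 1 point per gene with random vertical scatter, bars for list medians, dotted lines at 2-fold and the lowest and highest gene of each list named. POSTN at -4.76 and ITGB8 at -3.33 are the lowest points of the RS panel, and the member median is 0.34 in OIS and -0.27 in RS.

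Markers of other cells were examined on the same arrays. Smooth muscle markers had a summed signal of 12316 in OIS, 33687 in RS and 21731 in growing cells over 5 measured genes. Most of that sum was ACTG2, with 10811 in OIS, 27381 in RS and 18786 in growing cells. RS was highest, as for THBS1, but OIS was lowest, whereas for THBS1 growing cells were lowest. In that list 1 gene was lower in OIS and the same gene, CNN1, higher in RS, while ACTG2 had log2 ratios of -0.80 and 0.54. SMTN was at -0.22 in OIS, MYH11 at -0.13 in RS, and DES was above the floor in growing cells only, with a bound of -0.17 in both. Of 8 endothelial markers 4 were measured, and the summed signal of the 8 was 2161 in OIS, 2254 in RS and 1495 in growing cells. Most of that sum was TEK, with 1275 in OIS, 2033 in RS and 1251 in growing cells. ROBO4, PECAM1 and VWF were at least 2-fold higher in OIS than in growing cells, with 576, 135 and 130.5 in OIS, 58.5, 52.7 and 80.9 in RS and 105, 49.0 and 59.7 in growing cells, whereas CDH5, KDR, TIE1 and CLDN5 were at or below the floor on all arrays. Epithelial markers summed to 3439 in OIS, 6665 in RS and 3557 in growing cells, of which KRT18 alone gave 2963, 6010 and 2987. KRT8 and KRT18 were at least 2-fold higher in RS, where SFTPC and SFTPB had log2 ratios of -0.77 and -0.15 and KRT19 was at or below the floor. EPCAM was at least 2-fold lower in OIS, and CDH1 and NKX2-1 at or below the floor on all arrays. Platelet markers, relevant because platelets carry thrombospondin-1, summed to 247 in OIS, 142 in RS and 127 in growing cells over 5 genes. PPBP and GP9 were at or below the floor on all arrays. PF4, ITGA2B and GP1BA read at most 72.9 on any array, and none was past 2-fold in any comparison. These sums lie near the floor and give no order of the arrays. Among fibroblast markers, DCN was at -1.37, THY1 at -0.58, LUM at -0.36 and S100A4 at 0.87 in OIS. In RS, S100A4 was at 1.68 and LUM at 0.79. The part of these markers in the members' values was not tested.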

How the data were processed

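RNA of 3 cultures was measured on 1 array each. Per the submitters' processing notes the deposited values were made with MAS5, as a linear intensity per probe set. Its version and settings, and a genome build, were not given in the sources used here. The 2% trimmed mean was 497 on each array. How the signals were scaled was not given, but means this alike hide any change common to all genes. No detection calls were used.

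Genes were named from the platform annotation. Of 54613 probe sets 41091 named 1 gene and were used, 1801 named several and 11721 none. Of those used, 41037 had an identifier in the RefSeq table, with 0 differing symbols. Genes of a list without such a probe set were not analysed here. Signals below 45.5 were raised to it before log2, and genes above it on at least 1 array counted as measured (13466 of 19775). A call was 2-fold on the brightest probe set. List medians were taken over at least 5 measured genes. Named were all members, the 2 highest and 2 lowest genes of each list in each ratio over growing, 8 relatives and the 3 most alike genes. Of the marker lists not every such gene is named. COL12A1, COL3A1, ITGAV, ITGB1, CD44, CD47, TGFB1, TGFBR1 and TWIST2 were named after their values were seen.

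The members, lists, motifs and tests were chosen with earlier results of these data known. The 9 alternatives concerned normalization, centring, floor, pseudocount, filter, probe sets and the size of a call. The steps were tested on simulated data in which differences well above 2-fold were put into bright genes. That test does not cover differences near 2-fold or dim genes. Python 3.11.15, numpy 2.4.6, pandas 2.3.3 and matplotlib 3.10.9 were used.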

Additional observations from a re-analysis of the deposited data

Results flagged for a closer look

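POSTN and SPP1 stood out because OIS and RS differed from growing cells in opposite directions, each by at least 2-fold on the brightest probe set. The log2 ratio of OIS over RS was 5.90 for POSTN and 3.21 for SPP1, the second a lower bound because RS was below the floor. With 1 array per condition the difference was not tested.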

How the results depend on the processing

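Leaving out a replicate was not run, since each condition has a single one. No paired analysis was possible because each condition had 1 array. Alternatives were compared with the spread between probe sets of a gene.

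Of 213 member ratios under the alternatives, 198 moved by less than that spread, 15 by more and 0 of those past 2-fold changed sign. Many of the 198 could not move. Centring changed nothing because the median ratio of all genes was 0, and the filter and the floors leave ratios of bright probe sets as they are. THBS2 and TGFBI, with 1 probe set each, were also fixed under the probe set settings. The 198 are therefore no measure of robustness. With the median of all probe sets, 2 members were at least 2-fold higher in OIS than in growing cells (THBS2 and CCN4), and in RS 1 was higher (THBS1) and 1 lower (POSTN). Over all genes, that setting gave 459 higher in OIS, and 322 higher and 549 lower in RS. Without probe sets that can cross-hybridize, 1 member was higher in RS (THBS1) and 1 lower (POSTN), while a floor at the 60th percentile, 88.8, left 1 lower (POSTN). Over all genes, the first setting gave 415 higher and 578 lower in RS, and the second 614 lower. With the higher floor SPP1 had a log2 ratio of RS over growing of -0.42 in place of -1.39, because its RS signal is raised to that floor, and it has no probe set left once cross-hybridizing ones are dropped. At 3-fold, 2 members (CCN4 and SPP1) were higher in OIS and 1 (POSTN) lower in RS than in growing cells, and 3 were higher in OIS than in RS. Over all genes, 291, 317 and 305 passed 3-fold in those directions.

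Without cross-hybridizing probe sets the log2 ratios of POSTN were 1.68 in OIS over growing and -5.65 in RS over growing, and those of THBS1 were 1.21 and 1.75. With the median of all probe sets those of POSTN were 0.92 and -2.52, and OIS over RS was 3.30 in place of 5.90. Either setting left 4 members at least 2-fold higher in OIS than in RS, the first without SPP1 and the second without TNC. Over all genes, these settings gave 591 and 501. Of 192 list medians, 9 moved by more than the spread, and centring could not move any of them.

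Over all genes, the floor at the 25th percentile, 11.7, gave 1541 higher and 1698 lower in OIS over growing, 1317 and 1614 in RS over growing, and 1731 and 1579 in OIS over RS. At 3-fold these were 291 and 341, 147 and 317, and 305 and 252. The median of all probe sets gave 322 genes higher in RS than in growing cells, where the brightest gave 501.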
